A study of Rattus norvegicus with 36 samples.

Results

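Kitlg encodes a ligand with which the granulosa cells of the ovarian follicle signal to the oocyte, and Gja1 the main gap junction protein between granulosa cells. The transcripts of both were followed here in cultured rat granulosa cells. Every probe set whose platform symbol is Kitlg or Gja1 was taken, 4 for Kitlg and 3 for Gja1, or 2 of the 14217 genes and 7 of the 31042 probe sets measured. Granulosa cells were expressed by needle puncture from the ovaries of Sprague Dawley rats, immature animals of 21 to 27 days. They attached for 24 h in 5% serum and were then cultured for 48 h in serum-free medium. Androstenedione, from which aromatase makes estrogen, was present in all groups (0.1 µM by the series' design text, 0.1 M by the sample descriptions). Cells received FSH at 3 ng/ml, cAMP at 1 mM, in a form the labels do not give, or no stimulus (basal). Each was combined with 0, 1, 5 or 10 µM HPTE, which the body makes from the pesticide methoxychlor. The 12 groups held 3 arrays each, numbered 1 to 3 in their titles, 36 arrays in all. Nothing in the labels tells whether these 3 were different animals or wells of a shared pool, and p-values therefore speak only of the spread between the samples at hand, which may be technical.

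Kitlg encodes KIT ligand, also called stem cell factor, a growth factor that granulosa cells display on their membrane or release. Its receptor KIT sits on the oocyte and on theca cells, and the ligand supports oocyte growth and survival. Gja1 encodes connexin 43, the main gap junction protein between granulosa cells, through which small molecules such as cAMP, cGMP and metabolites pass from cell to cell. FSH acts through a receptor that raises cAMP in granulosa cells, so cAMP given from outside is a stimulus that does not need that receptor.

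The cultures carried the markers of granulosa cells, 12 of 13 measured marker genes lying above the median level of the table. So did 6 of 9 theca and stroma, 5 of 10 leukocyte, 3 of 9 oocyte, 2 of 8 endothelial and 2 of 7 surface epithelium markers. Over the 9 measured oocyte markers the summed intensity was 506.3 to 616.1 in FSH cells and 736.4 to 759.9 in basal cells, both without HPTE, with no overlap of the arrays, and none of the 9 passed the test there. In FSH cells at 10 µM, where Kitlg was low, the sum was 652.1 to 926.2, wholly above that of FSH cells without HPTE, again with 0 of 9 called. At 5 µM it was 905.3 to 1283.2 in cAMP cells and 425.3 to 697.7 in basal cells, and 1 of 9, Zp2, was higher (1.17 ± 0.27, adjusted p = 0.00471), beside 4.65% of all genes. Of single probe sets, 9.23%, 9% and 10.1% separated without overlap in the same direction in these 3 comparisons. At 5 µM the sum in FSH cells was 416.2 to 678.6, wholly below that of cAMP cells. There 3 of 9 markers were lower in FSH than in cAMP cells, beside 3.09% of all genes. Of single probe sets, 8.64% had FSH arrays wholly below the cAMP ones there. No such share is given for sums of 9 genes. Leukocyte markers summed to 670.2 to 2787.4 in FSH cells and 990.0 to 3290.2 in basal cells, 1 of 10 being lower (Cd14), 2 of 9 theca and stroma markers were higher with FSH, and 0 of 8 endothelial and 0 of 7 surface epithelium markers passed in either direction. Of all genes 4.89% were higher and 5.34% lower with FSH. The part of these cells in the results was not tested. Among the oocyte markers Zp2 averaged 7.91, Zp3 7.26 and Gdf9 6.61 on the log2 scale over all arrays, above the table's median of 6.11, and the other 6 lay below it. These are bulk samples, in which fewer cells of a type and less RNA per cell cannot be told apart. The arrays numbered 3 stood apart in RNA ratios, with a Gapdh 3' minus 5' log2 ratio of 0.767 to 1.07 against 1.82 to 2.31 for number 1 and 1.61 to 2.4 for number 2. Number 2 of the FSH cells without HPTE lay nearer to number 2 of the cAMP cells at 1 µM than to that of the FSH cells at 1 µM, by a median absolute log2 difference of 0.159 against 0.249. Kitlg itself was low on that array and high on number 2 of the cAMP cells without HPTE, as if these 2 arrays had been exchanged. By the same distance, however, number 2 of the cAMP cells lay nearer to its own stimulus (0.185 against 0.216). The labels were kept, and the main results that rest on these arrays are given with and without them. That exclusion was chosen because the values looked exchanged, Kitlg among them, so the values without the pair are a description and not an independent test. This holds for every adjusted p given without the pair.

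The sequences before the transcription starts are shown because a stimulus that raises cAMP and an agent that binds estrogen receptors are compared here. They are the parts of RefSeq's promoter windows on rat build GRCr8 that precede the annotated gene, both on the plus strand, chr7:36782410-36782620 for Kitlg and chr20:36302314-36302489 for Gja1. Capitals mark matches to the motifs searched.
Kitlg: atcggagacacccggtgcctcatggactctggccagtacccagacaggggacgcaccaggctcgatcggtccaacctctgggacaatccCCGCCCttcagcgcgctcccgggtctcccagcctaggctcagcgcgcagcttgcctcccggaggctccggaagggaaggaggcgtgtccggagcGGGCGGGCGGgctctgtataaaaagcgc
Gja1: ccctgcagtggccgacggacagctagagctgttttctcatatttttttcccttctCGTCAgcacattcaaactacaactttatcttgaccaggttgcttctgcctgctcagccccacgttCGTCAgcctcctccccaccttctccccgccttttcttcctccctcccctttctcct
The motifs were searched on both strands in the 250 bases before the window's start site. The Kitlg window held 3 matches to the GC box GGGCGG, of which 2 overlap each other, and matches to GC boxes occurred in 30.5% of 33469 RefSeq windows of the same length. The Gja1 window held 2 matches to TGACG, the core of the cAMP response element (18.2% of windows), and 1 to the AP-1 site TGACTCA (4.05%), which lies 52 to 58 bases before that start, inside the annotated gene, and is not printed. Neither window held the full cAMP response element TGACGTCA (1.59% of windows), which contains that core, the NR5A site CAAGGTCA (1.33%), the estrogen response element, GGTCA and TGACC 3 bases apart (0.0239%), or the TCF/LEF sites CTTTGATC (0.636%) and CTTTGTTC (1.41%). GC content was 67.2% in the Kitlg window and 51.2% in the Gja1 window, against a median of 51.2% over all windows. Which of the annotated starts these cells use was not analysed here.

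Kitlg was high in FSH cells at 0 and 1 µM HPTE and low in FSH cells at 10 µM HPTE. The leading probe set, 1388856_at, is the one with the highest mean of the 4, and its level is the log2 of the deposited intensity. Its group means spanned 2.36 log2 units, with 7.78 ± 0.84 in FSH cells at 1 µM as the highest and 5.43 ± 0.21 in basal cells at 10 µM as the lowest (SD, n = 3 each). By dose, FSH cells had 8.01, 5.77 and 9.14 at 0 µM in the order of the array numbers, 8.26, 6.81 and 8.28 at 1 µM, 6.17, 5.97 and 6.27 at 5 µM, and 5.43, 5.77 and 5.75 at 10 µM. The 5 highest of the 12 arrays of FSH cells were thus all at 0 or 1 µM, and the array at 0 µM that stayed low was number 2. In cAMP cells the levels were 6.03, 8.54 and 5.42 at 0 µM, 6.09, 5.99 and 6.46 at 1 µM, 6.32, 6.24 and 6.95 at 5 µM, and 5.88, 6.65 and 6.99 at 10 µM. Only number 2 at 0 µM exceeded 7 there. Basal cells had 5.69, 5.51 and 6.09 at 0 µM, 5.72, 5.88 and 6.37 at 1 µM, 5.74, 5.41 and 5.97 at 5 µM, and 5.32, 5.29 and 5.68 at 10 µM. No basal array exceeded 6.37. From the highest group mean to the lowest the order was FSH at 1 and 0 µM, cAMP at 0, 10, 5 and 1 µM, FSH at 5 µM, basal at 1, 0 and 5 µM, FSH at 10 µM and basal at 10 µM. Neighbours in that order differed by less than the larger of their SDs, except FSH over basal cells at 10 µM (0.22 against 0.21).

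**Figure D1:**
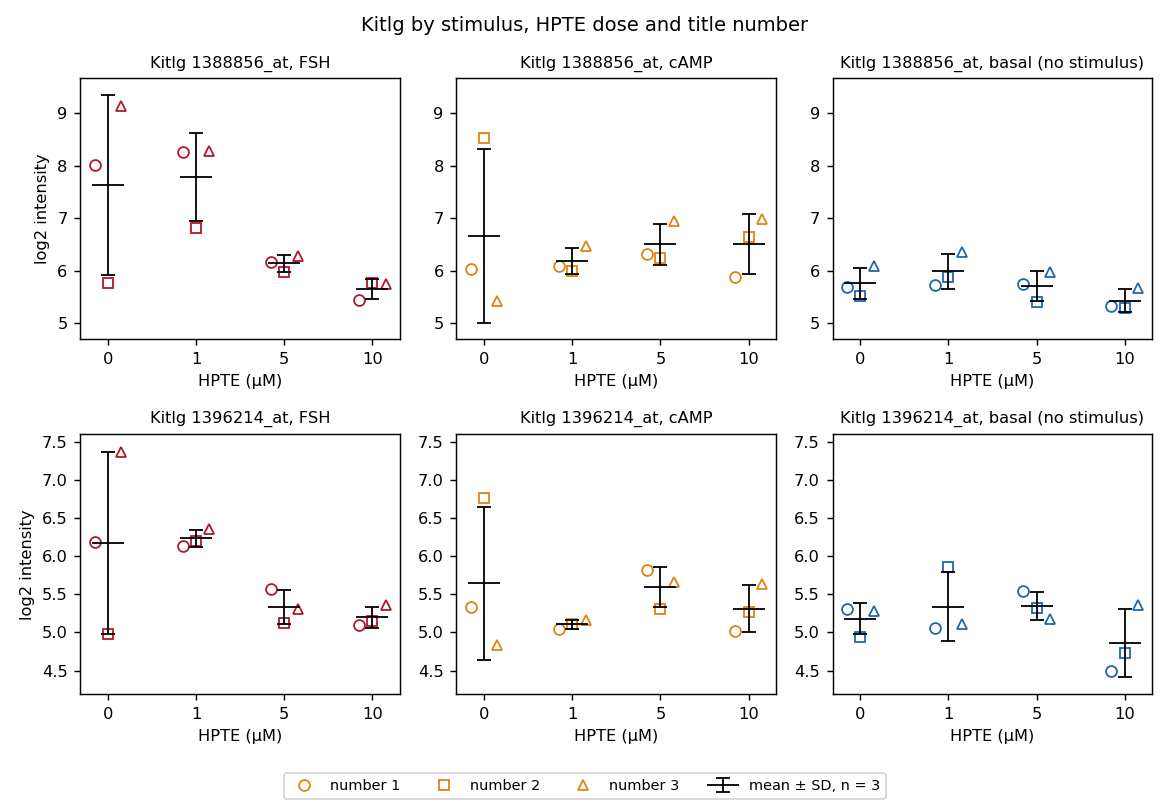
Log2 intensity (y axis) of the Kitlg probe sets 1388856_at (top) and 1396214_at (bottom) by HPTE dose in µM (x axis, categories) in FSH, cAMP and basal cells; symbols mark the array number and bars the mean ± SD of 3 arrays. FSH cells lie high at 0 and 1 µM, and number 2 (square) goes against the other arrays in both FSH and cAMP cells at 0 µM.

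The first comparison asks what FSH does to Kitlg in the absence of HPTE. The level averaged 7.64 ± 1.72 in FSH cells and 5.76 ± 0.29 in basal cells (SD, n = 3 each), a 3.68-fold difference (log2 1.88 ± 0.60 SE) with an adjusted p of 0.0504 in limma over all probe sets, just over the threshold of 0.05. The FSH array was the higher one in 3 of 3 pairs of the same number, but the groups overlapped through number 2 of the FSH cells. In that comparison 8.06% of all probe sets passed. With the array number as a block the same difference passed (adjusted p = 0.0198), a setting for which no share of all probe sets is given. Without number 2 of the FSH and cAMP cells at 0 µM it was 7.03-fold (2.81 ± 0.37, adjusted p = 7.47e-06), and without number 3 of all groups 2.45-fold (1.29 ± 0.66, adjusted p = 0.377).

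At 1 µM HPTE the FSH arrays of Kitlg 1388856_at (6.81 to 8.28) all lay above the basal arrays (5.72 to 6.37), and none of these 6 arrays belongs to the doubtful pair. The difference was 3.48-fold (1.80 ± 0.60) with an adjusted p of 0.127, and 0.0466 with the number as a block. Of all probe sets 3.03% passed, and 5.29% had FSH arrays wholly above the basal ones. The spread used by the test is shared over the 12 groups, so the adjusted p fell to 0.00123 when the pair at 0 µM was left out. FSH and cAMP cells at 1 µM did not overlap either: the FSH mean was 3.05-fold that of cAMP cells (1.61 ± 0.60, adjusted p = 0.411, and 0.01 without the pair), where 0.409% of probe sets passed and 4.48% separated this way. At 5 µM FSH cells exceeded basal cells by 0.43 ± 0.60 and at 10 µM by 0.22 ± 0.60, both with an adjusted p of 1 and with 95% intervals of -0.80 to 1.66 and -1.01 to 1.45. The arrays overlapped at 10 µM but not at 5 µM, where FSH was higher in 3 of 3 pairs of the same number. That separation was narrow, with the lowest FSH array at 5.97 and the highest basal array at 5.968. It was seen for 1.9% of all probe sets.

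Kitlg was lower with HPTE in FSH cells. At 10 µM 1388856_at averaged 5.65 ± 0.19 against 7.64 ± 1.72 at 0 µM (SD, n = 3 each), 3.97-fold lower (-1.99 ± 0.60, adjusted p = 0.034), in a comparison in which 8.45% of all probe sets passed. The difference had this sign in 2 of 3 pairs of the same number, since number 2 stood at 5.77 at both doses. The FSH arrays at 0 µM are those that were compared with basal cells above, so the 2 results are not independent. The slope over the 4 doses was -0.22 ± 0.05 log2 units per µM (adjusted p = 0.0051, with 10.2% of probe sets called). At 1 µM the level was 0.14 ± 0.60 above that at 0 µM (adjusted p = 1), and at 5 µM the difference was -1.50 ± 0.60 (adjusted p = 0.171). The slope passed without any single array of the 4 groups (adjusted p up to 0.0286), but not when only these groups were in the fit (0.0527), where the 10 µM difference did not pass either (0.254). The 10 µM difference did not pass after leaving out number 1 (adjusted p = 0.123) or 3 (0.318) at 0 µM, or number 1 (0.109), 2 (0.0776) or 3 (0.0817) at 10 µM. Without number 3 of all groups neither passed (-1.29, adjusted p = 0.36, and -0.17 per µM, adjusted p = 0.104), and without the exchanged-looking pair both were larger (-2.92 ± 0.37, adjusted p = 4.54e-06, and -0.28 ± 0.03 per µM, adjusted p = 4.26e-07).

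In basal cells the Kitlg slope on HPTE was -0.04 ± 0.05 log2 units per µM (adjusted p = 1), and at 10 µM 1388856_at stood 0.33 ± 0.60 below its level at 0 µM (adjusted p = 1). Its basal arrays ran from 5.29 to 6.37, near or below the table's median of 6.11. Of all 36 arrays, 15 lay above the median of their array for this probe set. Whether a fall could show at such low levels was not tested, which also limits the comparison of FSH with basal cells. Whether HPTE acted differently on FSH and basal cells was tested directly. The effect of 10 µM in FSH cells minus that in basal cells was -1.66 ± 0.85 (adjusted p = 0.569, with 2.17% of probe sets called), and -2.59 ± 0.50 without the pair (adjusted p = 0.00243). The effect in FSH cells minus that in cAMP cells was -1.83 ± 0.85 (adjusted p = 0.489, with 1.88% called), and -3.71 ± 0.53 without the pair (adjusted p = 7.34e-05). With the arrays as deposited, no difference in the effect of 10 µM HPTE between stimuli passed for Kitlg. The pair was left out partly because of its Kitlg levels, which enlarges these differences by itself, so the values without it are no test of them.

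No Kitlg difference between cAMP and basal cells passed. Without HPTE 1388856_at averaged 6.66 ± 1.65 in cAMP cells and 5.76 ± 0.29 in basal cells (log2 difference 0.90 ± 0.60, adjusted p = 0.566, where 7.18% of probe sets passed), a difference that came to -0.04 ± 0.37 without the pair. At 5 µM cAMP cells exceeded basal cells by 0.80 ± 0.60 (adjusted p = 0.587) and at 10 µM by 1.08 ± 0.60 (adjusted p = 0.463), with no overlap of the arrays at either dose. Such a separation was seen for 10.1% and 9.16% of all probe sets at these doses. With the block added and the pair left out these differences passed (adjusted p = 0.0312 at 5 µM and 0.00429 at 10 µM), again after an exclusion made partly on Kitlg levels. At 10 µM the cAMP arrays also lay wholly above the FSH arrays, whose log2 difference from cAMP cells was -0.85 ± 0.60 (adjusted p = 0.726), and 10.1% of probe sets had FSH arrays wholly below the cAMP ones there. The slope on HPTE in cAMP cells was 0.01 ± 0.05 per µM (adjusted p = 0.988).

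A second Kitlg probe set, 1396214_at, moved with the leading one. It was dim, with a mean of 5.44, and lay above the median of the array on 6 of 36 arrays. Over the 12 group means their Pearson r was 0.942, a description of points that share the same arrays. FSH cells had 6.19, 4.98 and 7.37 at 0 µM, 6.14, 6.20 and 6.36 at 1 µM, 5.57, 5.12 and 5.31 at 5 µM, and 5.10, 5.15 and 5.36 at 10 µM. Number 2 was again the low FSH array at 0 µM, and it was the high cAMP array there, at 6.76 against 5.33 and 4.83 in numbers 1 and 3. At 1 µM the 3 FSH arrays lay above the basal ones (5.06, 5.86 and 5.11) and above the cAMP ones (5.05, 5.11 and 5.17). The slope on HPTE in FSH cells passed (-0.11 ± 0.04 per µM, adjusted p = 0.0433), although leaving out any 1 of 10 of the 12 arrays ended the call (adjusted p up to 0.199). The FSH difference without HPTE was 1.00 ± 0.40 (adjusted p = 0.154), and 1.60 ± 0.28 without the pair (adjusted p = 2.72e-04).

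The other 2 Kitlg probe sets, 1370770_s_at and 1388096_at, and the Gja1 probe set 1369639_at gave low and flat values. All 36 arrays lay between 4.25 and 5.93 log2 units for these 3 probe sets, below the table's median of 6.11. Over 90 comparisons of these 3 no unadjusted p was below 0.0603, and differences, interactions included, ran between -0.30 and 0.35. The Kitlg probe sets therefore disagreed, a pair showing the pattern above and a pair showing none. Sequences of the probes were not analysed here.

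Gja1 gave the brightest probe set of the whole table. Probe set 1372002_at averaged 13.82 over all arrays, the highest mean of 31042, on a scale whose highest value on any array was 14.04. Its 12 group means spanned only 0.27 log2 units. FSH cells had 13.93, 13.85 and 13.95 at 0 µM, 13.85, 13.87 and 13.96 at 1 µM, 13.83, 13.75 and 13.83 at 5 µM, and 13.74, 13.82 and 13.68 at 10 µM. In cAMP cells the levels were 13.87, 13.87 and 14.00 at 0 µM, 13.84, 13.95 and 13.87 at 1 µM, 13.90, 13.83 and 13.91 at 5 µM, and 13.83, 13.89 and 13.82 at 10 µM. Basal cells had 13.80, 13.72 and 13.79 at 0 µM, 13.73, 13.79 and 13.79 at 1 µM, 13.77, 13.73 and 13.77 at 5 µM, and 13.52, 13.70 and 13.71 at 10 µM. Stimulated cells had the higher mean in 8 of 8 comparisons with basal cells at the same dose, but after quantile normalization, which gives the brightest probe set of every array the same value, in 2 of 8, with 2 lower and 4 at 0. In 6 of the 8 the arrays did not overlap, namely FSH at 0 and 1 µM and cAMP at all 4 doses. The group means ran from 13.92 ± 0.07 in cAMP cells at 0 µM, over FSH at 0 and 1 µM, cAMP at 1, 5 and 10 µM, FSH at 5 µM, basal at 0, 1 and 5 µM and FSH at 10 µM, to 13.64 ± 0.10 in basal cells at 10 µM (SD, n = 3 each). Neighbours in that order differed by no more than the larger of their SDs, except FSH over basal cells at 10 µM (0.105 against 0.103).

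**Figure D2:**
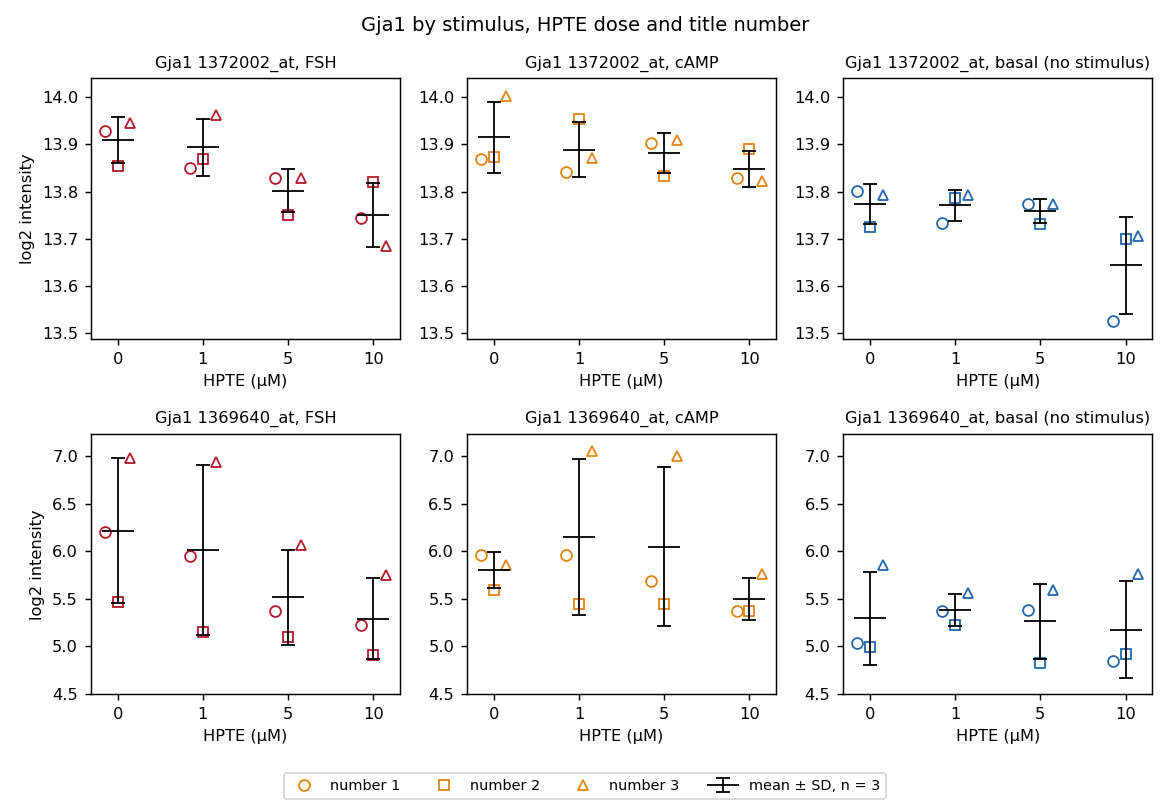
Log2 intensity (y axis, not starting at 0) of the Gja1 probe sets 1372002_at (top) and 1369640_at (bottom) by HPTE dose in µM (x axis, categories) in FSH, cAMP and basal cells; symbols mark the array number and bars the mean ± SD of 3 arrays. The bright probe set varies within 13.52 to 14.00, with the mean of cAMP cells above that of basal cells at every dose in the values as deposited (not after quantile normalization), and the dim one is highest in number 3 (triangle) in 11 of 12 groups.

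None of the differences of Gja1 1372002_at passed the test, and the directions given here do not hold after quantile normalization for FSH and cAMP at 0 µM (both differences 0). There cAMP at 10 µM gave 0.06 and 10 µM HPTE in FSH cells -0.08. FSH cells without HPTE were 1.10-fold above basal cells (log2 0.14 ± 0.08, adjusted p = 0.42, 95% interval -0.02 to 0.29), and cAMP cells also 1.10-fold (0.14 ± 0.08, adjusted p = 0.386). For FSH at 0 and 1 µM, 8.7% and 5.29% of all probe sets had stimulated arrays wholly above the basal ones, and for cAMP at 0, 1, 5 and 10 µM these shares were 7.91%, 12.4%, 10.1% and 9.16%. The largest stimulus difference was that of cAMP at 10 µM HPTE, 1.15-fold (0.20 ± 0.08, adjusted p = 0.138, where 6.18% of probe sets passed). In FSH cells 10 µM HPTE went with a level 1.12-fold lower than at 0 µM, with no overlap of the arrays (-0.16 ± 0.08, adjusted p = 0.268). Arrays wholly below those at 0 µM were seen there for 10.4% of probe sets. In basal cells the difference at 10 µM was -0.13 ± 0.08 (adjusted p = 0.974), again without overlap (4.76% of probe sets), and in cAMP cells it was -0.07 ± 0.08 (adjusted p = 0.955). The exchanged-looking pair moved these values little, the FSH difference without HPTE being 0.16 ± 0.08 without it (adjusted p = 0.368). Bright probe sets span less in these data: over the 53 with a mean above 13 the median span of group means was 0.194, against 0.561 over the 7560 with a mean above 8. The part of that in the small Gja1 differences was not tested.

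The dim Gja1 probe set 1369640_at had a wider span of group means, 1.04, and its level went with the array number. Its levels in FSH cells were 6.20, 5.47 and 6.99 at 0 µM, 5.96, 5.15 and 6.94 at 1 µM, 5.37, 5.10 and 6.07 at 5 µM, and 5.22, 4.91 and 5.75 at 10 µM. In cAMP cells they were 5.96, 5.59 and 5.85 at 0 µM, 5.96, 5.45 and 7.06 at 1 µM, 5.69, 5.45 and 7.004 at 5 µM, and 5.37, 5.37 and 5.76 at 10 µM. Basal cells had 5.03, 4.99 and 5.86 at 0 µM, 5.37, 5.22 and 5.56 at 1 µM, 5.38, 4.82 and 5.59 at 5 µM, and 4.85, 4.92 and 5.76 at 10 µM. Number 3 was the highest array in 11 of 12 groups, by 0.81 on average over the mean of numbers 1 and 2, and it is the number with the lower Gapdh ratio. For the leading probe set 1372002_at the same offset was 0.03, and for Kitlg 1388856_at 0.43. The part of RNA quality in these levels was not tested.

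**Figure D3:**
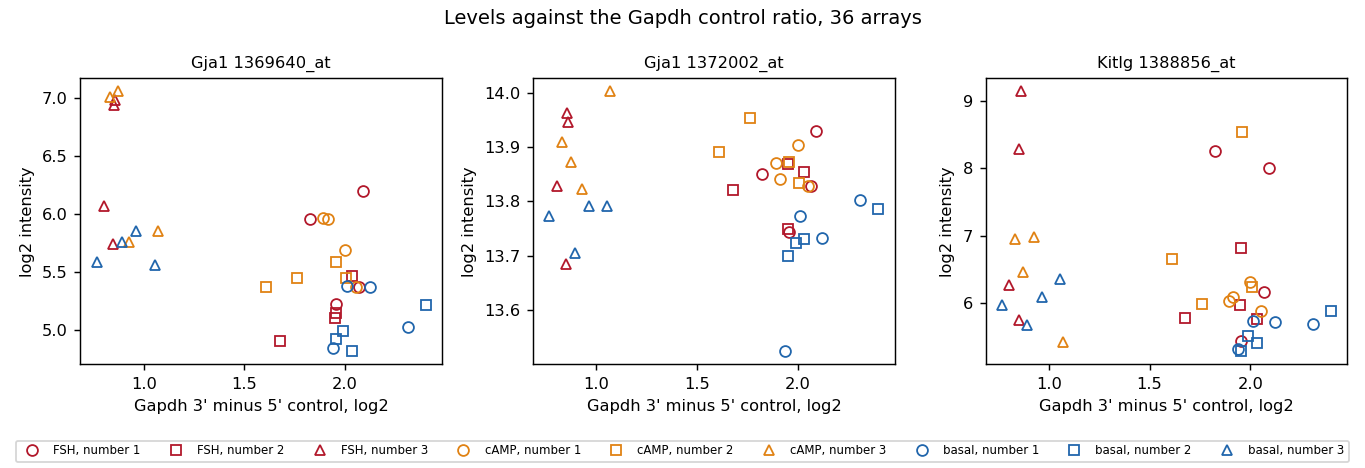
Log2 intensity (y axis) of Gja1 1369640_at, Gja1 1372002_at and Kitlg 1388856_at against the log2 ratio of the Gapdh 3' and 5' control probe sets (x axis) on each of 36 arrays; colours mark the stimulus and symbols the array number. The arrays numbered 3 form a group of their own at ratios of 0.767 to 1.07, where 1369640_at is high.

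With the array number as a block, 6 differences of Gja1 1369640_at passed that had not passed without it. The share of all probe sets that passed under the block is not given, so these calls have no background beside them. FSH cells without HPTE stood 1.90-fold above basal cells (0.92 ± 0.44, adjusted p = 0.294), higher in 3 of 3 pairs of the same number, and the block gave an adjusted p of 0.00383. Without the exchanged-looking pair it was 1.30 ± 0.48 (adjusted p = 0.118). In FSH cells 10 µM HPTE went with a 1.90-fold lower level in 3 of 3 pairs (-0.93 ± 0.44, adjusted p = 0.277, block 0.00366), and the difference was -1.30 ± 0.48 without the pair (adjusted p = 0.115). The slope there was -0.09 ± 0.04 per µM (adjusted p = 0.188, block 0.00132, and 0.0823 without the pair). At 5 µM the difference was -0.70 ± 0.44 (adjusted p = 0.522, block 0.0341), and -1.08 without the pair (adjusted p = 0.268). cAMP cells exceeded basal cells by 0.77 ± 0.44 at 1 µM (adjusted p = 0.425, block 0.0155) and by 0.78 ± 0.44 at 5 µM (adjusted p = 0.395, block 0.0144), in 3 of 3 pairs each. At 1 µM 8.71% and at 5 µM 8.08% of all probe sets passed without the block. Within numbers 1 and 2 alone the FSH difference without HPTE was 0.82 ± 0.27 (adjusted p = 0.0918). Over the 12 group means the Pearson r between the bright and the dim Gja1 probe set was 0.884.

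**Figure D4:**
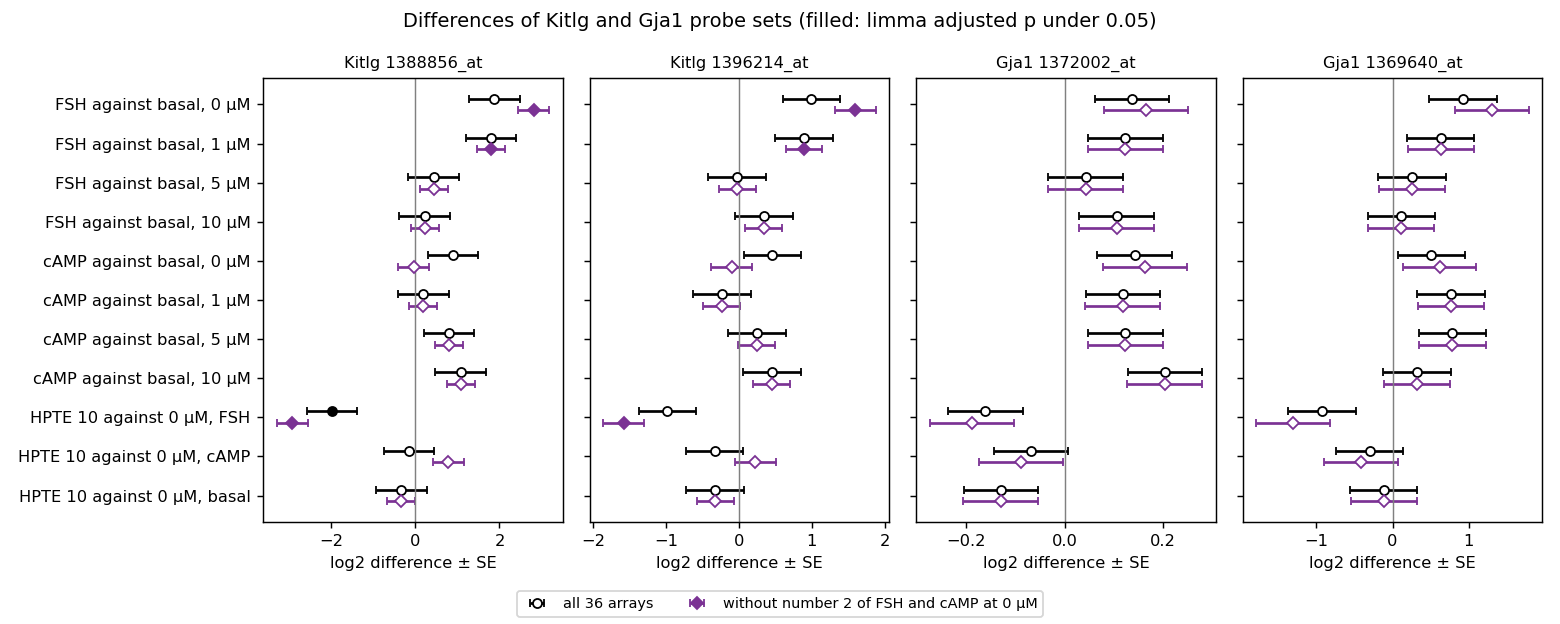
Log2 differences ± SE (x axis; own scale in each panel) of 4 probe sets in 11 comparisons (y axis), from all 36 arrays (black) and without number 2 of FSH and cAMP cells at 0 µM (purple); filled symbols passed at an adjusted p under 0.05. Without the pair the Kitlg 1388856_at difference of FSH against basal cells is 2.81 at 0 µM and passes. At 1 µM it stays at 1.80 and passes with a smaller SE. The pair was left out partly because of its Kitlg levels, so the purple symbols for Kitlg are a description and not a test. Gja1 1372002_at is 0.16 against 0.14 at 0 µM, and Gja1 1369640_at 1.30 against 0.92.

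The 2 genes can be set side by side. Over the 12 group means the leading probe sets had a Pearson r of 0.805, and 0.65 without the pair. In cAMP cells at 0 µM, Gja1 1372002_at was 0.16 ± 0.08 above basal cells and Kitlg 1388856_at 0.04 ± 0.37 below them once the pair was left out. That exclusion was made partly on Kitlg levels. The Gja1 direction with all arrays did not hold after quantile normalization, and the r above are from the values as deposited. FSH minus cAMP at 1 µM HPTE was 1.61 ± 0.60 for Kitlg and 0.00 ± 0.08 for Gja1. Of 120 results for the leading and the widest other probe set of each gene, 3 passed, all of them falls of Kitlg with HPTE in FSH cells.

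The Kit ligand system was followed with a list of the ligand, its receptor, the proteases that shed it and the signalling proteins behind KIT, of which 24 of 26 were measured. The receptor Kit stayed at a mean of 5.18, below the median of the table, with differences of 0.10 ± 0.15 for FSH against basal cells and -0.12 ± 0.15 for 10 µM HPTE in FSH cells. The shedding proteases Adam10 (-0.03 ± 0.18) and Adam17 (0.20 ± 0.14) did not pass with FSH. With FSH, 0 members were higher and 2 lower, where 4.89% of all genes were higher and 5.34% lower. Of the 24 measured members, 18 lay above the table's median level. Probe sets with a mean above 8 passed more often, 17.3% with FSH against 8.06% of all probe sets. With 10 µM HPTE in FSH cells these shares were 17.5% and 8.45%. The adaptor Gab1 fell by 0.72 on the log2 scale (SE 0.12, adjusted p = 1.57e-04) and the kinase subunit Pik3cd fell by 0.55 (SE 0.14, adjusted p = 0.0144). The block gave 2 higher and 4 lower, and leaving out the pair 1 and 3. Here and in the lists below, the shares of all genes belong to the fit of all arrays without the block. No such share is given for the block or without the pair, so those counts have no background beside them. At 10 µM HPTE in FSH cells 3 members were higher and 1, Kitlg itself, lower, beside 5.83% and 5.02% of all genes. The block gave 5 higher and 2 lower. The 3 were the tyrosine kinase Src (0.51 ± 0.14), Gab1 (0.45 ± 0.12) and the adaptor Shc1 (0.41 ± 0.12). That comparison shares the FSH arrays at 0 µM with the one before. The median of the list was -0.02 for FSH and 0.03 for HPTE, against 0.00 and -0.02 over all genes.

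Of the connexins and pannexins, the proteins that form gap junction and membrane channels, 13 of 23 were measured. Only 4 lay above the median level of the table, with Gja1 far the brightest probe set. Panx1, a pannexin that forms channels in the membrane of single cells, rose with FSH by 0.61 ± 0.16 (adjusted p = 0.0114), and no other connexin or pannexin passed in that comparison, while the block called 1 more, lower. Gja4, the connexin 37 of the oocyte's side of its junctions, differed by -0.14 ± 0.22 and Gjc1, connexin 45, by -0.60 ± 0.36. For FSH 4.89% of all genes were higher and 5.34% lower. At 5 µM HPTE in FSH cells Panx1 fell by 0.64 on the log2 scale (SE 0.16, adjusted p = 0.0103), the 1 of 13 called, beside 3.87% of all genes lower. Its rise with FSH and this fall share the FSH arrays at 0 µM. At 10 µM HPTE 0 of the 13 passed in FSH cells (5.83% of all genes higher, 5.02% lower), cAMP cells (1.81% and 0.703%) or basal cells (0.584% and 0.879%), and the block called 1 of them, in FSH cells. Without the exchanged-looking pair these counts were the same.

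Of 24 proteins that bind, phosphorylate or sort connexin 43, 19 were measured. With FSH 5 of them were lower and 0 higher, beside 5.34% and 4.89% of all genes. Of the 19, 18 lay above the table's median level, and bright probe sets passed more often than all probe sets. With a mean above 8, 17.3% passed with FSH, 16.3% with cAMP and 17.5% with 10 µM HPTE in FSH cells. The shares of all probe sets were 8.06%, 7.18% and 8.45%. The part of brightness in this list's counts was not tested. Caveolin 1 (Cav1), a coat protein of membrane invaginations, averaged 8.15 in FSH cells and 11.13 in basal cells (-2.98 ± 0.32, adjusted p = 2.55e-07). Its relative Cav2 fell by 3.14 (SE 0.32), and Ccn3, a secreted matrix protein known to bind connexin 43, fell by 3.72 (SE 0.61). Cnst, consortin, which sorts connexins to the membrane, differed by -1.85 ± 0.28, and the protein kinase Prkca by -1.79 ± 0.26. With cAMP 5 were lower and 0 higher as well, Cav1 by -3.07 ± 0.32 and Ccn3 by -2.67 ± 0.61, where 5.94% of all genes were lower and 3.27% higher. At 10 µM HPTE in FSH cells 6 of 19 were higher and 0 lower, beside 5.83% and 5.02% of all genes. This comparison shares the FSH arrays at 0 µM with that of FSH against basal cells, so opposite signs in the 2 are not independent. Without the pair the counts with FSH and with 10 µM HPTE in FSH cells were the same, with cAMP 6 were lower and 0 higher, and with 10 µM HPTE in cAMP cells 2 were higher and 0 lower. Ccn3 averaged 11.63 at 10 µM and 7.69 at 0 µM (3.94 ± 0.61, adjusted p = 4.66e-05), Cav2 was 1.82 ± 0.32 higher, Cnst 1.71 ± 0.28, Cav1 1.34 ± 0.32 and Prkca 1.23 ± 0.26. In basal cells Cav1 fell with 10 µM HPTE (-1.31 ± 0.32, adjusted p = 0.0357), the 1 member called there, where 0.879% of all genes were lower and 0.584% higher. In cAMP cells Cav1 was the 1 call as well (-1.25 ± 0.32, adjusted p = 0.0345, where 0.703% were lower and 1.81% higher), and the block gave 3 higher and 1 lower. In basal cells the block called 2, both lower. The junction protein Tjp1 (-0.10 ± 0.17), the cadherin Cdh2 (0.06 ± 0.14) and beta-catenin, Ctnnb1 (0.02 ± 0.07), did not pass with FSH.

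The follicle-cell side of the dialogue with the oocyte was described with 26 measured genes of 31, Kitlg and Gja1 included. Of these, 22 lay above the table's median level, and bright probe sets passed more often than all probe sets. With a mean above 8, 17.3% passed with FSH and 17.5% with 10 µM HPTE in FSH cells, against 8.06% and 8.45% of all. With FSH 5 of the 26 genes were higher and 1 lower, beside 4.89% and 5.34% of all genes. The block gave 8 and 1, and leaving out the pair 6 and 1. Nppc, the C-type natriuretic peptide that keeps the oocyte in meiotic arrest, averaged 8.14 in FSH cells and 5.44 in basal cells (2.70 ± 0.34, adjusted p = 3.33e-06). Its receptor gene Npr2 differed by 0.41 ± 0.17 and did not pass. Follistatin, Fst, which binds activin, rose by 1.17 ± 0.27, Bmpr2, a receptor for the oocyte's GDF9 and BMP15, by 1.07 ± 0.31, and the activin subunit Inhba by 0.82 ± 0.12. The glycine transporter Slc6a9 fell by 0.71 (SE 0.20). At 10 µM HPTE in FSH cells 1 gene was higher and 6 were lower, beside 5.83% and 5.02% of all genes, and the counts were the same without the pair. The FSH arrays at 0 µM are shared with the comparison of FSH with basal cells, so opposite signs in the 2 are not independent. Nppc stood at 5.59 against 8.14 at 0 µM (-2.55 ± 0.34, adjusted p = 7.11e-06). Kitlg followed in size (-1.99 ± 0.60), then Hey2, a Notch target (-1.38 ± 0.40), and Fst (-0.89 ± 0.27). Slc6a9 was the gene that rose (1.69 ± 0.20), and it also rose with 10 µM HPTE in cAMP (1.63 ± 0.20) and basal cells (1.08 ± 0.20), the 1 call of the list in each. With the block cAMP cells had 4 higher and 1 lower and basal cells 1 and 1, and without the pair cAMP cells had 3 and 0. Of all genes 1.81% were higher and 0.703% lower in cAMP cells, and 0.584% and 0.879% in basal cells. In cAMP cells Nppc differed by -0.71 ± 0.34 (adjusted p = 0.53). The median of the list was 0.14 for FSH and -0.18 for 10 µM HPTE in FSH cells. Granulosa markers moved as well, 9 of 13 higher and 1 lower with FSH, and 1 higher and 8 lower with 10 µM HPTE in FSH cells, read against the same shares of all genes, and 4 of these markers are in the dialogue list too. Of the 13 granulosa markers 12 lay above the table's median level. The part of these markers in the list's counts was not tested.

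**Figure D5:**
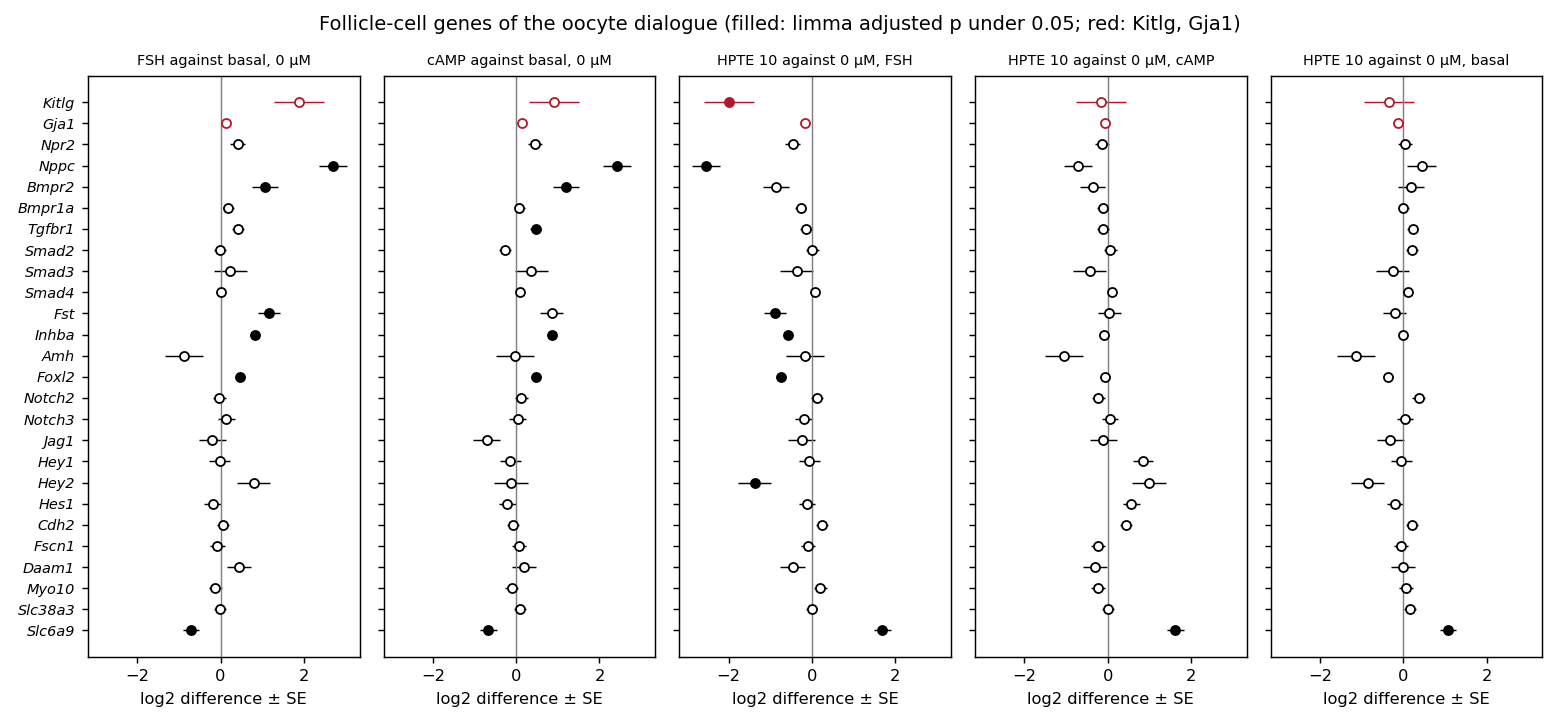
Log2 differences ± SE (x axis) of 26 follicle-cell genes of the oocyte dialogue (y axis) in 5 comparisons; filled symbols passed at an adjusted p under 0.05, and Kitlg and Gja1 are red. Nppc lies farthest right with FSH and farthest left with 10 µM HPTE in FSH cells, and Slc6a9 is right of 0 with HPTE in all 3 kinds of cell. The comparisons of FSH at 0 µM and of HPTE in FSH cells share the FSH arrays at 0 µM.

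The genes whose group means ran most like those of Kitlg 1388856_at were sought among 2207 genes with a span of at least 1 log2 unit. Over the 12 group means the highest Pearson r were those of Sema6d (0.976), Pcdh18 (0.975), Trpv4 (0.973), Fam110c (0.971) and Zfp503 (0.968). The lowest belonged to Rimklb (-0.955), Pik3ip1 (-0.953) and Fam124a (-0.932). For Gja1 1372002_at the highest were Prkar2b (0.972), a regulatory subunit of protein kinase A, Prss35 (0.969), Dcaf12l1 (0.958), Fndc3b (0.958) and Fam210b (0.957), and the lowest Tcp11l2 (-0.973), Sgms1 (-0.957) and Slc20a2 (-0.957). The Gja1 means used here, as deposited, span only 0.27 log2 units. After quantile normalization 2 of its 8 stimulus differences were higher, 2 lower and 4 at 0. Without the pair of arrays Fam110c led for Kitlg (0.982) and Prkar2b still for Gja1 (0.966). These r describe 12 means that share arrays, and 48 genes for Kitlg and 113 for Gja1 had an r above 0.9.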

How the data were processed

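For each probe set of an Affymetrix rat genome array the authors deposited 1 linear intensity per sample, already summarised and normalized. RMA is named per the submitters' processing notes and ArrayAssist in the design text, and no versions are stated in the sources used here. Per the labels, 40 ng of total RNA was amplified for each array. Arrays have no count depth, so their number limits the precision.

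The log2 of each intensity was fitted with limma 3.58.1 in R 4.3.3 (lmFit, contrasts.fit, eBayes) over all 36 arrays and 12 group means, two-sided, with Benjamini-Hochberg over the 31042 non-control probe sets in each of 30 comparisons and a threshold of 0.05. Symbols came from the platform table, which gave 1 symbol to 20826 probe sets, several to 436 and none to 9780, and were updated through the gene identifier in RefSeq's gene table. Each gene of a list is represented by its probe set of highest mean. At most 5 genes of a list are named in a comparison, those that passed first and by size, beside list members named with their values because of their role. The genes most alike were the 5 highest and 3 lowest Pearson r. The members and lists were chosen with earlier results of these data known. The fit was tested on simulated data. Array medians were 65.8 to 73.7, and arrays of a group correlated at 0.95 to 0.994.

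Array numbers were taken as pairs because the deviations of same-numbered arrays from their group means correlated above 0.1 in every comparison, except between FSH and cAMP cells at 0 µM (-0.124 for number 2). The pairing comes from the numbers in the titles. The main fit has no term for the array number, so its adjusted p leave this pairing out. The protocols name no such block, and fits with the number as a block are given as an alternative. Alternatives were quantile normalization, median centring, an offset of 16, a level filter, the block, array weights, a trend in the prior, fits of fewer groups or arrays, and leaving out arrays. Counts of list members under the block and without the pair were added after seeing the data. No share of all genes is given beside them for these settings. Promoter windows came from RefSeq (GRCr8).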

Additional observations from a re-analysis of the deposited data

Results flagged for a closer look

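The dim Kitlg probe set 1388096_at was the single result in which every pair of same-numbered arrays moved one way with 5 µM HPTE in FSH cells and the opposite way in basal cells. The change was -0.299, -0.164 and -0.033 log2 units in FSH cells and 0.007, 0.166 and 0.197 in basal cells. The effect in FSH cells minus that in basal cells was -0.289, and this opposition of signs was not itself tested; limma's interaction term gave the same size with a standard error of 0.209 and an adjusted p of 0.995. The probe set lay below the table's median on all 36 arrays.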

How the results depend on the processing

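Over 2196 recomputed values of the 120 results, 1921 kept their direction and side of the threshold, 174 changed sign with neither value passing, 78 newly passed, 23 lost their call and 0 reversed with a call. Of the 78, 18 came from leaving out number 2 of FSH and cAMP cells at 0 µM, and 29 from that with the block. Leaving out only the FSH array of this pair gave 6, and only the cAMP array 1. That exclusion was made partly on Kitlg levels, so these calls are a description and not independent support. For Kitlg 1388856_at, FSH against basal at 0 µM passed with quantile normalization (1.90), above the median level (1.88), with the replicate block (1.88), array weights (1.94) and a trend in the prior (1.88), without number 2 of FSH and cAMP cells at 0 µM (2.81) and with that and the block (2.71); leaving out 1 array gave 1.13 to 2.81. At 1 µM it passed with the block, without the pair and with both (1.80 each) and with array weights (2.23), and leaving out 1 array gave 1.55 to 2.28. FSH against cAMP at 0 µM passed without the pair, with and without the block (2.85 each). The fall at 10 µM with FSH did not pass in numbers 1 and 2 only (-1.29) or with only the compared groups (-1.99), with -2.92 to -1.24 when 1 array was left out, and its slope did not pass under the same settings either (-0.17 and -0.22). The slope of Kitlg 1396214_at lost its call with quantile normalization (adjusted p = 0.0529), median centring (0.0561), numbers 1 and 2 only (0.259) and only the compared groups (0.145). The 10 µM effect in FSH minus basal cells passed without the pair (-2.59) and with the block too (-2.48). For Gja1 1372002_at, cAMP against basal at 0 µM passed with array weights (0.14), and the FSH slope with an offset of 16 and with a trend in the prior (-0.016 each). The block newly called 8 results, those given above, and changed no other call. The estimation of array weights stopped before full convergence. The causes were not tested. Gja1 1372002_at lay near the top of the scale and the 3 flat probe sets below the table's median, and the part of this in their small differences was not tested.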
